A study of Mus musculus with 2 samples.

Results

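The 10 genes described here make, sense or break down prostaglandins and leukotrienes, and were taken from the 31053 genes counted in each of 2 droplet scRNA-seq libraries of tumor-infiltrating immune cells (TIIs). They are *Ptgs1*, *Ptgs2* and *Ptges* (prostaglandin synthesis), *Hpgd* (prostaglandin breakdown), *Ptger2* and *Ptger4* (receptors), *Alox5*, *Alox5ap* and *Lta4h* (leukotriene synthesis) and *Ltb4r1* (receptor). The list was chosen by pathway and selected on a measured value, the higher *Hpgd* level in the creatine library, and the question asked of it was whether that difference was also seen within single cell types. The differences in *Hpgd* are therefore given as descriptions. With 1 library per group there were no replicates, and no test was possible for any gene.

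TIIs were sorted as live CD45.2+ cells from B16-OVA melanoma tumors, a mouse melanoma line that carries the model antigen ovalbumin, harvested on day 14 from B6 mice. The control library is labelled PBS and the creatine library creatine, which was injected intraperitoneally at 10.5 mg daily. The protocol entry of the control library also describes the creatine injection, so its place as the control rests on its title and its treatment label. Each library came from 4 tumors combined before sorting with 10000 cells loaded, so the spread between mice cannot be seen in these data. The day and the number of tumors are those of the labels, and other passages of the study's methods give another day of harvest and another number of mice.

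Cyclooxygenases, encoded by *Ptgs1* and *Ptgs2*, turn arachidonic acid into the precursor from which prostaglandin E2 (PGE2) is made by *Ptges*. PGE2 acts on immune cells through the EP2 and EP4 receptors and commonly dampens their antitumor functions, and 15-hydroxyprostaglandin dehydrogenase, encoded by *Hpgd*, starts its inactivation. In the other branch, 5-lipoxygenase (*Alox5*) with its activating protein (*Alox5ap*) and leukotriene A4 hydrolase (*Lta4h*) make leukotriene B4, which attracts granulocytes, monocytes and some T cells through the receptor BLT1 (*Ltb4r1*).

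On GRCm38, the build that mm10 names, GENCODE M21 places *Hpgd* on chromosome 8 from 56294585 to 56321043 on the plus strand and *Ptgs2* on chromosome 1 from 150100031 to 150108227 on the plus strand. *Ptgs1* lies on chromosome 2 (36230426 to 36252272, plus), *Ptges* on chromosome 2 (30889471 to 30929863, minus), *Ptger2* on chromosome 14 (44988195 to 45003820, plus) and *Ptger4* on chromosome 15 (5206661 to 5244187, minus). *Alox5* lies on chromosome 6 (116410077 to 116461178, minus), *Alox5ap* on chromosome 5 (149264767 to 149288153, plus), *Lta4h* on chromosome 10 (93453411 to 93484875, plus) and *Ltb4r1* on chromosome 14 (55765962 to 55768494, plus). Exons of *Ptger2*, *Ptger4* and *Alox5ap* overlap exons of another counted gene on the opposite strand (*Gm17173*, *Ttc33* and *Gm19719*), and the sources used here do not state whether counting used strand. No exon of a member overlaps an exon of another counted gene on its own strand.

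RefSeq promoter windows matched 9 of the 10 genes by symbol. The windows of *Hpgd*, on which the question turns, and of *Ptgs2*, the inducible cyclooxygenase gene, are shown as the 250 bases before the annotated start (GRCm38.p6, plus strand, 5′ to 3′). They cover chr8:56294302-56294551 and chr1:150099781-150100030. For *Hpgd* the RefSeq start used here lies upstream of the GENCODE start given above, and for *Ptgs2* both give the same start. Distances are counted from the RefSeq start. Capitals mark matches, on either strand, to GAGGAA (PU.1) or TTGCGCAA (C/EBP), which do not overlap each other.
Hpgd: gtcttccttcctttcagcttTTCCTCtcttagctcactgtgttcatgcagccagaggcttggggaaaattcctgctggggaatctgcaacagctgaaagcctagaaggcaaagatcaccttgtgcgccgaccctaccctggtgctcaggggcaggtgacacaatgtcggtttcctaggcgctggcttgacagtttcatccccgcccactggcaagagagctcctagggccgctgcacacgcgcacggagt
Ptgs2: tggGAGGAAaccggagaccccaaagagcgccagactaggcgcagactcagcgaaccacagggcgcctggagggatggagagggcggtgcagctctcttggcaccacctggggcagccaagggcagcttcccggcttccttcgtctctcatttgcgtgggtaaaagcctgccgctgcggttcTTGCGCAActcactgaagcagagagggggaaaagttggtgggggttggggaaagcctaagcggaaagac
The GAGGAA match starts 230 bases before the start of *Hpgd* and 247 bases before that of *Ptgs2*, and 23.3% of all 32851 RefSeq windows of this length hold one. The TTGCGCAA match, 69 bases before the start of *Ptgs2*, is held by 0.164% of windows. Of the other motifs searched on both strands, neither window holds the TATA box (TATAAA, in 12.4% of windows), the E-box (CACGTG, 6.02%), the AP-1 motif (TGACTCA, 4.46%), the NR4A motif (AAAGGTCA, 1.34%) or the CRE (TGACGTCA, 1.55%). These matches describe letters in these windows, and binding was not measured.

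The control library held 7649 cells and the creatine library 6503, of which 7241 and 6229 had at most 25% mitochondrial UMIs (unique molecular identifiers, which count captured mRNA molecules) and were kept. The kept cells held 79319769 and 72091124 UMIs with a median of 7688 and 8475 per cell. The libraries shared 30 cell barcodes, and no doublet caller was run. Cells were gated on marker lists into 13 classes, and of the 6 classes that the question names, classical monocytes numbered 441 in control and 669 in creatine cells, nonclassical monocytes 85 and 154, macrophages 964 and 349, neutrophils 48 and 23, type 2 dendritic cells (cDC2s) 124 and 56, and T cells 3674 and 3034. Levels are CPM, the UMIs of a gene per 1000000 UMIs of the class, with exact 95% Poisson intervals, and ratios are log2 of CPM, creatine over control, with exact 95% intervals. Both cover counting error only, not differences between cells or mice.

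*Hpgd* was highest in monocytes in both libraries. Nonclassical monocytes, which patrol vessel walls, held the highest level, at 265 CPM (221 to 315) in the control library and 259 CPM (232 to 289) in the creatine library. These levels lay within each other's intervals, with a log2 ratio of -0.03 (-0.33 to 0.27). Classical monocytes, the *Ly6c2*-high cells that enter inflamed tissue, held 50.04 CPM (43.1 to 57.8) in control and 107 CPM (99.7 to 116) in creatine cells, a log2 ratio of 1.10 (0.87 to 1.34). In cDC2s the level was 5.79 CPM (2.78 to 10.7) against 48.9 CPM (33.9 to 68.3), a log2 ratio of 3.08 (2.03 to 4.26), but these were 10 UMIs from 6 cells and 34 UMIs from 9 cells. The 5 cells with most of them held 9 of the 10 and 29 of the 34. The higher level in the creatine library was thus seen within classical monocytes and cDC2s, and was not seen within nonclassical monocytes.

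Macrophages differed in the other direction, with 66 UMIs at 3.90 CPM (3.01 to 4.96) in control and 17 UMIs at 1.91 CPM (1.11 to 3.06) in creatine cells. The log2 ratio was -1.03 (-1.89 to -0.24), and with equal weight for each cell it turned to 0.16. The 5 macrophages with most *Hpgd* UMIs held 33 of the 66 in the control library and 8 of the 17 in the creatine library. An *Hpgd* UMI was found in 27 of 964 control and 14 of 349 creatine macrophages, at medians of 15631 and 24496 UMIs per cell. In this gate the 6 macrophage markers summed to 14416 and 17889 CPM, the 6 classical monocyte markers to 574 and 476 CPM and the 6 nonclassical markers to 78.4 and 51.6 CPM, none of them at 0, and their part in the *Hpgd* value was not tested. Neutrophils, B cells, *Ccr7*+ dendritic cells and plasmacytoid dendritic cells had no *Hpgd* UMI in either library. For neutrophils the exact intervals ended at 28.8 CPM and 52.9 CPM. Among the monocyte, cDC2 and macrophage gates the order in both libraries was nonclassical monocytes, classical monocytes, cDC2s and macrophages, and the intervals of cDC2s and macrophages overlapped in the control library alone.

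**Figure D1:**
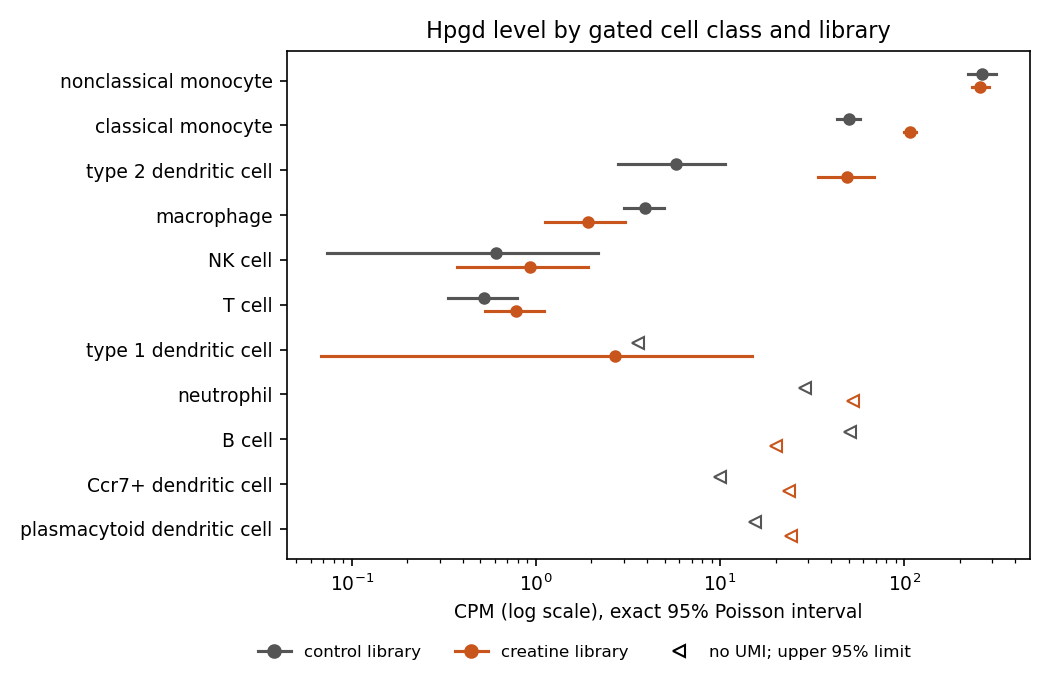
*Hpgd* CPM (log axis) in gated cell classes, with points for the control (grey) and creatine (orange) library, lines for exact 95% Poisson intervals and open triangles for the upper limit where no UMI was found. Nonclassical monocytes sit at 265 and 259 CPM, while classical monocytes stand at 50.04 and 107 CPM and cDC2s at 5.79 and 48.9 CPM.

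T cells held *Hpgd* at 0.52 CPM (0.33 to 0.79) and 0.78 CPM (0.53 to 1.11), and NK cells at 0.61 and 0.93 CPM. Of these UMIs in T cells, 20 of 23 in control and 25 of 31 in creatine cells lay in T cells with at least 3 markers of another lineage. Such cells held *Hpgd* at 2.03 CPM in control and 5.10 CPM in creatine cells, and the other T cells at 0.088 and 0.172 CPM. The lists of other lineages include *Ly6c2*, at 447 CPM in control and 481 CPM in creatine cells over the whole T cell gate. Whether these cells were of mixed lineage was not tested. With each cell thinned to 2000 UMIs, 5.90% of classical monocytes (3.85 to 8.58) in control and 13.4% (10.9 to 16.2) in creatine cells had an *Hpgd* UMI. Without thinning, at medians of 7866 and 9488 UMIs, these shares were 15.4% and 32.6%. The thinned shares in nonclassical monocytes were 25.3% (16.4 to 36.0) and 31.8% (24.5 to 39.8), and 1 of 122 and 6 of 54 cDC2s had one. NK cells, taken as the background, had a UMI in 0.149% and 0.176% at the same depth, at medians of 4098 and 5586 UMIs before thinning. The shares in both monocyte gates stood above that of NK cells in each library. In *Foxp3*+ T cells, regulatory cells that can use *Hpgd* in fat tissue, there were 4 UMIs in control and 11 in creatine cells, and the latter came from 2 cells.

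Over all kept cells *Hpgd* was at 6.44 CPM (5.90 to 7.03) in control and 18.3 CPM (17.3 to 19.3) in creatine cells, a log2 ratio of 1.504 (1.36 to 1.65). Both monocyte gates made up a larger part of the creatine library, with classical monocytes at 6.09% and 10.7% of kept cells and nonclassical monocytes at 1.17% and 2.47%. With each class given its share of UMIs in the control library, the log2 ratio was 0.81, and with those of the creatine library 0.69. Cells between lists and cells with too few markers were weighted here as further groups. Over gated cells alone the ratios were 0.71 and 0.63, beside 1.57 with each library's own mix. The difference over all cells therefore shrank at a fixed mix of classes and stayed above 0. Classical monocytes held 36.2% of all *Hpgd* UMIs in control and 54.3% in creatine cells, nonclassical monocytes 25.4% and 24.98%, and macrophages 12.9% and 1.29%. Fewer expressing cells and less RNA per cell cannot be told apart in such sums, but for *Hpgd* the share of cells with a UMI was counted as well.

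Classical monocytes were then split by how many of the 6 nonclassical markers (*Ace*, *Adgre4*, *Treml4*, *Eno3*, *Ear2* and *Spn*) had a UMI in the cell, a split made after the first values had been seen. Among the 239 control and 213 creatine cells with none, *Hpgd* was at 18.2 CPM (12.8 to 25.2) and 75.2 CPM (63.9 to 87.9), a log2 ratio of 2.04 (1.52 to 2.60). Cells with 1 such marker held 58.7 CPM (45.0 to 75.3) and 101 CPM (88.3 to 115), a log2 ratio of 0.79 (0.37 to 1.22). With 2 or more, both libraries were nearly level at 140 CPM (112 to 173) and 142 CPM (127 to 158), a log2 ratio of 0.02 (-0.33 to 0.37). In each library *Hpgd* was thus higher in cells with more of these markers, and the libraries stood apart in cells with few of them. Across both monocyte gates, the levels in cells with 5 markers were 353 CPM (263 to 464) in control and 173 CPM (137 to 217) in creatine cells. The gap there ran the other way, in 26 and 52 cells. Creatine cells were deeper at each number of markers, with medians of 8213 and 9553 UMIs at 0 markers and 5286.5 and 7911 UMIs at 5. In the cells with none, the 6 macrophage markers summed to 671 CPM in control and 273 CPM in creatine cells, with 5 of them at least 2-fold lower. The 6 cDC2 markers summed to 70.0 and 101 CPM there, with 4 of them at least 2-fold higher. Cells with the same number of markers were thus matched neither for depth nor for markers of other lists. The part of these differences in the *Hpgd* values was not tested.

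**Figure D2:**
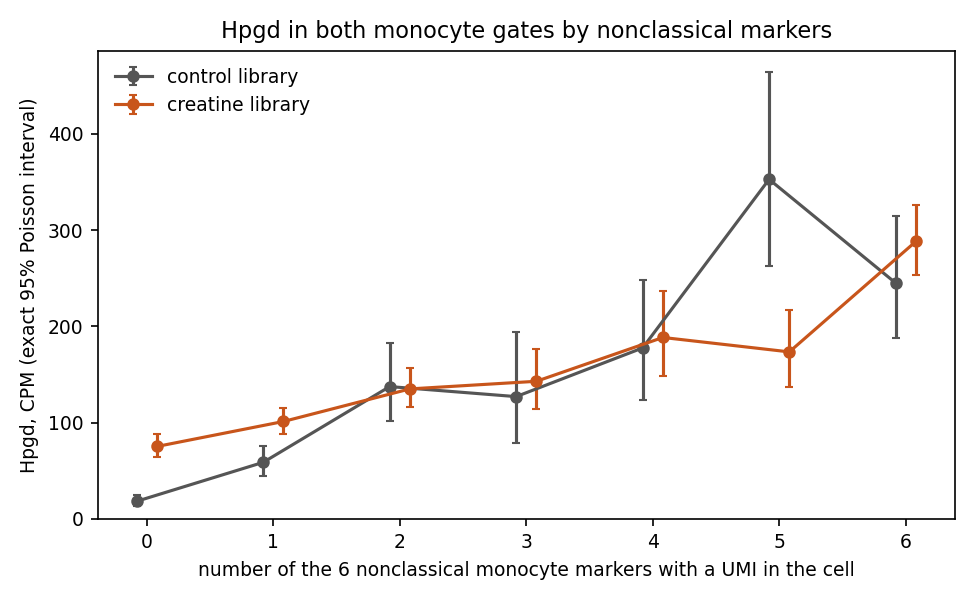
*Hpgd* CPM with exact 95% Poisson intervals in classical and nonclassical monocytes together, by the number of nonclassical markers with a UMI in the cell (0 to 6), for the control (grey) and creatine (orange) library. The curves are apart at 0 and 1 markers (18.2 against 75.2 CPM, and 58.7 against 101 CPM), meet from 2 to 4 markers and cross at 5.

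Other features of the classical monocyte gate differed between the libraries. The summed level of its own 6 markers was 5156 CPM in control and 5894 CPM in creatine cells with no marker at 0, and that of the 6 nonclassical markers 143 and 213 CPM, again with none at 0. Of its own markers, 1 was over 2-fold lower in the creatine library and none over 2-fold higher, and *Ly6c2* was at 1021 and 1690 CPM. The 6 macrophage markers summed to 518 and 269 CPM, and the 6 cDC2 markers to 74.4 and 108 CPM, none of them at 0. Of the macrophage markers, 2 were over 2-fold lower in the creatine library and none over 2-fold higher. Of the cDC2 markers, 1 was over 2-fold higher and 1 over 2-fold lower in the creatine library. The 6 T cell markers summed to 91.4 and 40.7 CPM with 5 of them over 2-fold lower, and the 5 melanoma markers to 42.7 and 21.8 CPM, with none of either list at 0. The 11 dissociation genes summed to 2046 and 2376 CPM, and the median mitochondrial share was 4.09% and 3.75%. The part of these differences in the *Hpgd* values was not tested. Within 0.05 of the gate's margin lay 59 control and 56 creatine cells inside the gate and 60 and 46 outside it.

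In the cDC2 gate, the 6 cDC2 markers summed to 1880 and 2045 CPM and the 6 classical monocyte markers to 634 and 1065 CPM, with no marker of either list at 0. *Ly6c2*, a classical monocyte marker, was at 72.4 CPM in control and 335 CPM in creatine cells, and its part in the *Hpgd* value was not tested. Among cDC2s without a UMI of *Ly6c2* or *Ace*, 85 control and 31 creatine cells, *Hpgd* was at 7.57 CPM (3.46 to 14.4) against 57.8 CPM (35.8 to 88.4), a log2 ratio of 2.93 (1.75 to 4.24). These values came from 9 UMIs in 5 cells and 21 UMIs in 6 cells.

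The genes most like *Hpgd* across 30 profiles (15 classes or sets of cells in each library) were *Tnfsf13os* (Pearson r of log2(CPM + 1) of 0.90), *Glud1* (0.90), *Serpinb2* (0.89), *Nxpe4* (0.89) and *Tppp3* (0.87), out of 11452 genes with at least 200 UMIs. *Glud1* encodes mitochondrial glutamate dehydrogenase and *Serpinb2* a plasminogen activator inhibitor. The profiles share libraries and depth, so r is a description. They also include the classical monocytes of both libraries, so a difference like that of *Hpgd* there is partly built into the choice of genes. In classical monocytes *Nxpe4* was at 29.2 and 70.6 CPM and *Tppp3* at 48.4 and 99.9 CPM, whereas *Glud1* was at 247 and 281 CPM. *Tnfsf13os* was at 15.4 and 18.3 CPM and *Serpinb2* at 15.4 and 20.9 CPM. In nonclassical monocytes *Nxpe4* stood at 202 and 177 CPM, *Tppp3* at 175 and 184 CPM, and *Glud1* at 432 and 338 CPM. *Tnfsf13os* stood at 44.9 and 41.8 CPM and *Serpinb2* at 61.2 and 50.4 CPM.

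The remaining members are taken by role, from prostaglandin synthesis to the leukotriene B4 receptor. A member counted as past the fold where it had at least 20 UMIs over both libraries in a class and its CPM differed at least 2-fold.

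**Figure D3:**
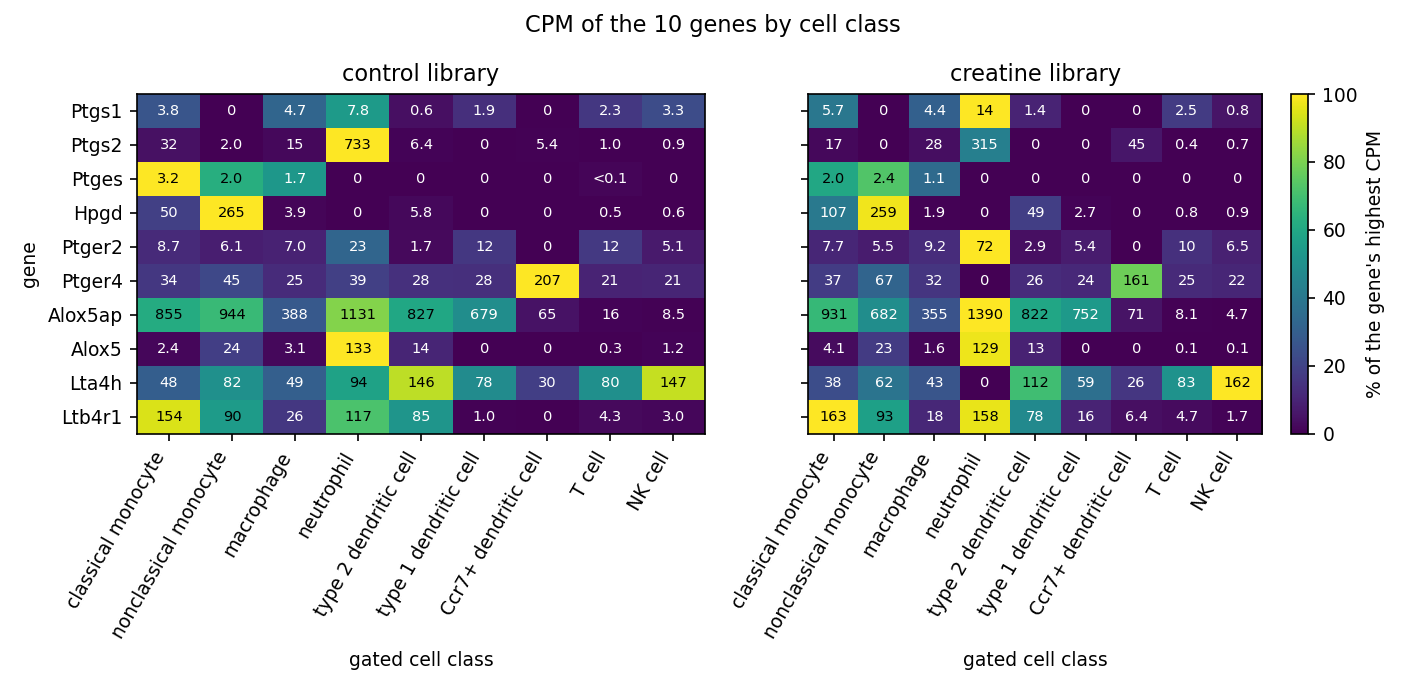
CPM of the 10 genes (rows, numbers in the cells) in 9 gated classes (columns) of the control (left) and creatine (right) library, with colour giving the percent of each gene's own highest CPM. *Ptgs2* is brightest in neutrophils, *Hpgd* in nonclassical monocytes, *Ptger4* in *Ccr7*+ dendritic cells and *Lta4h* in NK cells.

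*Ptgs2*, the inducible cyclooxygenase, was led by neutrophils at 733 CPM (592 to 897) in control and 315 CPM (198 to 477) in creatine cells. The log2 ratio was -1.22 (-1.96 to -0.54), from 94 UMIs in 11 cells and 22 UMIs in 6 cells. The 5 cells with most UMIs held 88.3% and 95.5% of them. At 2000 UMIs per cell, 7 of 33 neutrophils in control (21.2%, 8.98 to 38.9) and 5 of 23 in creatine cells (21.7%, 7.46 to 43.7) had a *Ptgs2* UMI. That depth left out 15 control neutrophils and none of the creatine library. The lower level thus rested on a handful of cells, and the intervals of these shares are too wide to compare them. The 6 macrophage markers in the neutrophil gate summed to 546 CPM and 129 CPM, with *C1qc* and *Pf4* at 0 in the creatine library and none at 0 in the control, while the 6 neutrophil markers summed to 99817 and 132690 CPM with none at 0. Their part in the *Ptgs2* value was not tested.

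In classical monocytes *Ptgs2* stood at 32.2 CPM (26.7 to 38.5) and 17.0 CPM (14.0 to 20.4), a log2 ratio of -0.92 (-1.31 to -0.54) that stayed under the fold. By nonclassical markers it was at 37.0 and 26.7 CPM in cells with none and at 41.7 and 12.8 CPM with 1. With 2 or more there were 0 UMIs in 80 control cells and 29 in 228 creatine cells. These 29 came from 9 cells, and 1 cell held 15, so the turned order there rested on a few cells. In macrophages *Ptgs2* was higher in the creatine library, at 15.3 CPM (13.5 to 17.3) and 28.4 CPM (24.98 to 32.1), with a log2 ratio of 0.89 (0.64 to 1.15) that came down to 0.19 with equal weight for each cell. Macrophages of the creatine library were deeper, with a median of 24496 UMIs against 15631. In the creatine library 1 macrophage held 31 of the 252 *Ptgs2* UMIs. Nonclassical monocytes had 1 *Ptgs2* UMI in control and 0 in creatine cells, so the highest *Hpgd* levels and nearly all monocyte *Ptgs2* UMIs lay in different monocyte gates. In cDC2s *Ptgs2* had 11 UMIs in 4 cells of the control and none in the creatine library. T cells held it at 1.03 and 0.40 CPM, a log2 ratio of -1.35 (-2.27 to -0.50) from 45 and 16 UMIs. With equal weight for each cell the ratio was -0.62, under the fold. Of these UMIs, 20 in control and 6 in creatine cells lay in T cells with at least 3 markers of another lineage. The rest held 25 and 10 UMIs, a log2 ratio of -1.35 (-2.58 to -0.25).

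*Ptgs1*, the constitutive cyclooxygenase, had 224 and 206 UMIs over all kept cells. Classical monocytes held 3.79 and 5.71 CPM (log2 ratio 0.59, -0.33 to 1.59), macrophages 4.66 and 4.39 CPM, and T cells 2.33 and 2.52 CPM. Nonclassical monocytes had no *Ptgs1* UMI in either library. *Ptges*, the inducible PGE2 synthase, was the rarest member, with 63 and 28 UMIs over all kept cells, a log2 ratio of CPM of -1.03 (-1.73 to -0.37). Of the 63 control UMIs, 13 lay in cells with too few markers for any class. It was otherwise found mostly in macrophages, at 1.71 and 1.13 CPM, and classical monocytes, at 3.25 and 1.95 CPM, and in both classes the interval of the log2 ratio held 0. Neutrophils and cDC2s had no *Ptges* UMI, and T cells had 2 in control and 0 in creatine cells.

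The PGE2 receptors were spread more evenly. *Ptger4*, which encodes EP4, was highest in *Ccr7*+ dendritic cells, the migratory cells that carry antigen to lymph nodes, at 207 CPM (163 to 259) in control and 161 CPM (104 to 238) in creatine cells. Nonclassical monocytes held 44.9 and 67.0 CPM (log2 ratio 0.58, -0.11 to 1.33), classical monocytes 33.8 and 37.1 CPM, cDC2s 28.4 and 25.9 CPM, and macrophages 25.4 and 31.8 CPM. The intervals of the log2 ratio held 0 in both monocyte gates, cDC2s and *Ccr7*+ dendritic cells, and in macrophages the ratio was 0.32 (0.10 to 0.54). Within T cells it was higher in the *Cd4*+ *Foxp3*- subset, at 55.3 and 53.1 CPM, and in *Foxp3*+ cells, at 31.1 and 36.0 CPM, than in *Cd8*+ cells, at 18.2 CPM (16.9 to 19.7) and 22.5 CPM (20.9 to 24.2). The intervals of the first 2 subsets overlapped in the creatine library and not in the control.

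*Ptger2*, which encodes EP2, had most of its UMIs in T cells, 523 of 749 in control and 398 of 633 in creatine cells. T cells also held 43865462 of the 79319769 kept UMIs in control and 39712615 of 72091124 in creatine cells. *Ptger2* was at 11.9 and 10.0 CPM in T cells, beside 9.44 and 8.78 CPM over all kept cells. *Cd8*+ T cells held 12.7 CPM (11.5 to 13.9) and 9.95 CPM (8.89 to 11.1), a log2 ratio of -0.35 (-0.56 to -0.14). In macrophages it was at 6.97 and 9.23 CPM (0.41, -0.02 to 0.82) and in classical monocytes at 8.66 and 7.66 CPM. Over the whole T cell gate both receptors differed by less than the fold, *Ptger2* at -0.25 (-0.44 to -0.06) and *Ptger4* at 0.24 (0.11 to 0.38).

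*Alox5ap*, which presents arachidonic acid to 5-lipoxygenase, was found in nearly every myeloid class. It was at 1131 CPM (954 to 1330) and 1390 CPM (1128 to 1696) in neutrophils, 944 CPM (860 to 1034) and 682 CPM (638 to 729) in nonclassical monocytes, and 855 CPM (825 to 885) and 931 CPM (908 to 955) in classical monocytes. cDC2s held 827 and 822 CPM and macrophages 388 and 355 CPM. The nonclassical monocytes, where the *Hpgd* levels were close, thus differed in *Alox5ap* with a log2 ratio of -0.47 (-0.63 to -0.30), the widest gap among these 5 classes. In this gate the 6 nonclassical markers summed to 3841 and 3540 CPM, the 6 classical markers to 2025 and 1385 CPM with 2 over 2-fold lower, and the 6 macrophage markers to 199.8 and 90.6 CPM with 3 over 2-fold lower, none of them at 0. Among the classical markers *Ly6c2* went the other way, at 104 and 206 CPM. The part of these markers in the *Alox5ap* value was not tested. The intervals of neutrophils and nonclassical monocytes overlapped in the control library and not in the creatine library.

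In T cells *Alox5ap* was at 15.5 CPM (14.4 to 16.8) and 8.13 CPM (7.27 to 9.07), a log2 ratio of -0.93 (-1.13 to -0.74). Of these UMIs, 496 of 682 in control and 224 of 323 in creatine cells lay in the 477 and 222 T cells with at least 3 markers of another lineage, and the log2 ratio in the rest was -0.94 (-1.31 to -0.58). The 6 macrophage markers in the T cell gate summed to 110 CPM in control and 58.8 CPM in creatine cells with none at 0, and *C1qa*, the macrophage complement gene, was at 27.7 and 14.0 CPM. NK cells held *Alox5ap* at 8.48 and 4.66 CPM and *C1qa* at 50.2 and 20.1 CPM. These macrophage transcripts differed in the same direction as *Alox5ap* in both lymphoid classes, and their part in its values was not tested.

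*Alox5*, the 5-lipoxygenase itself, had only 161 and 119 UMIs over all kept cells. Neutrophils held 133 CPM (77.2 to 212) and 129 CPM (59.0 to 245), nonclassical monocytes 24.5 and 22.9 CPM, and cDC2s 13.9 and 12.9 CPM, with log2 ratios from -0.10 to -0.04 in the 3 classes. The cDC2 value rested on 9 control and 3 creatine cells and turned to 1.08 under a stricter gate of at least 4 markers and a margin of 0.2. Classical monocytes and macrophages held less, at 2.43 and 4.05 CPM and at 3.07 and 1.58 CPM. In macrophages the log2 ratio was -0.96 (-1.93 to -0.09), from 52 and 14 UMIs.

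*Lta4h*, which makes leukotriene B4, was not confined to myeloid cells. NK cells held 147 CPM (135 to 161) and 162 CPM (153 to 171), cDC2s 146 CPM (129 to 165) and 112 CPM (88.6 to 140), and T cells 80.5 and 82.6 CPM. T cells, the largest class, contributed 58.4% and 56.1% of its UMIs, at a level near that over all kept cells (76.1 and 81.1 CPM). Classical monocytes were at 48.4 and 38.1 CPM (-0.34, -0.63 to -0.06), nonclassical monocytes at 81.6 and 62.3 CPM and macrophages at 48.8 and 42.6 CPM, so these 4 myeloid classes had log2 ratios below 0, with an interval that held 0 in nonclassical monocytes, and both lymphoid ones were close to it. In macrophages the ratio ran from -0.24 to 0.05 over the alternatives. At 2000 UMIs per cell, 7.11% (5.51 to 9.01) and 9.35% (6.39 to 13.1) of macrophages had an *Lta4h* UMI. Neutrophils had 12 UMIs in control and none in creatine cells, below the 20 UMIs needed for the count.

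*Ltb4r1* was led by classical monocytes, at 154 CPM (141 to 167) and 163 CPM (154 to 173), and neutrophils, at 117 CPM (65.5 to 193) and 158 CPM (78.7 to 282). Nonclassical monocytes held 89.7 and 93.0 CPM and cDC2s 85.2 and 77.6 CPM. Macrophages held 26.3 CPM (23.9 to 28.8) and 18.5 CPM (15.7 to 21.5), a log2 ratio of -0.51 (-0.78 to -0.25). The receptor gene did not follow *Hpgd* in classical monocytes, since classical monocytes without a nonclassical marker held 173 and 180 CPM, a log2 ratio of 0.06 (-0.15 to 0.27).

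Over the whole T cell gate *Ltb4r1* was at 4.33 and 4.68 CPM (0.11, -0.19 to 0.41). Of these UMIs, 68 in control and 22 in creatine cells lay in T cells with at least 3 markers of another lineage. In the rest it was at 3.58 and 4.71 CPM, a log2 ratio of 0.39 (0.05 to 0.74). The subsets differed, and they were not split by markers of another lineage. *Cd8*+ T cells held 2.19 CPM (1.73 to 2.75) in control and 0.91 CPM (0.61 to 1.30) in creatine cells, *Cd4*+ *Foxp3*- cells 27.7 and 13.5 CPM, and *Foxp3*+ cells 11.9 and 12.1 CPM. *Trdc*+ T cells, gated on a *Trdc* UMI together with one of *Tcrg-C1* or *Cd163l1* (genes of gamma-delta T cells), held 1 UMI in 40 cells of the control and 83 UMIs in 89 cells of the creatine library, 4.08 CPM (0.10 to 22.7) against 136 CPM (108 to 169), with a log2 ratio of 5.06 (2.54 to 10.38). Of the 190 control and 186 creatine *Ltb4r1* UMIs of the whole T cell gate, *Trdc*+ cells thus held 1 and 83. The ratio of the whole gate was not recomputed without them. The 83 UMIs came from 35 cells. Of them, 81 lay in the 52 creatine cells that also had a UMI of *Cd163l1*, a scavenger receptor gene of interleukin-17-type gamma-delta T cells, and only 3 control cells had one. Among *Trdc*+ cells without a *Cd163l1* UMI, 37 in each library, *Ltb4r1* had 0 and 2 UMIs. The value was thus carried by *Cd163l1*+ cells, which the control library held too few of to compare within them.

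**Figure D4:**
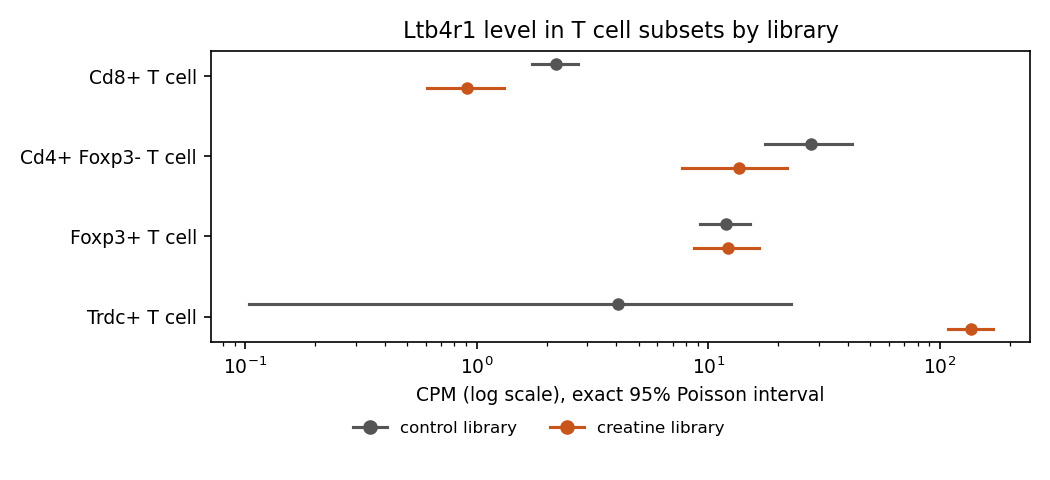
*Ltb4r1* CPM (log axis) with exact 95% Poisson intervals in 4 T cell subsets of the control (grey) and creatine (orange) library. *Trdc*+ cells stand at 4.08 against 136 CPM, *Foxp3*+ cells at 11.9 and 12.1 CPM, and the other subsets are lower in the creatine library.

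Counted by the fold, *Hpgd* was the only one of 10 members with enough UMIs in classical monocytes that was past it in the higher direction, against 2.81% of all genes with 20 UMIs in that class, and no member was past it in the lower direction against 4.29%. In nonclassical monocytes 6 members had enough UMIs and 0 were past the fold, with 4.75% of all genes higher and 2.27% lower. In macrophages all 10 had enough UMIs, 0 were higher against 1.22% and 1 (*Hpgd*) was lower against 2.72%. In neutrophils 4 had enough, 0 were higher against 5.72% and 1 (*Ptgs2*) was lower against 12.9%. In cDC2s 6 had enough, 1 (*Hpgd*) was higher against 3.8% and 0 were lower against 5.65%. In T cells 8 had enough, 0 were higher against 1.9% and 1 (*Ptgs2*) was lower against 3.03%. Nothing is read from the *Hpgd* counts, since its difference chose the list, and a single member in a class is too few to set against these shares. The median log2 ratio of the members with enough UMIs lay between -0.16 in macrophages and 0.13 in neutrophils, beside -0.03 and 0.02 over all genes.

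**Figure D5:**
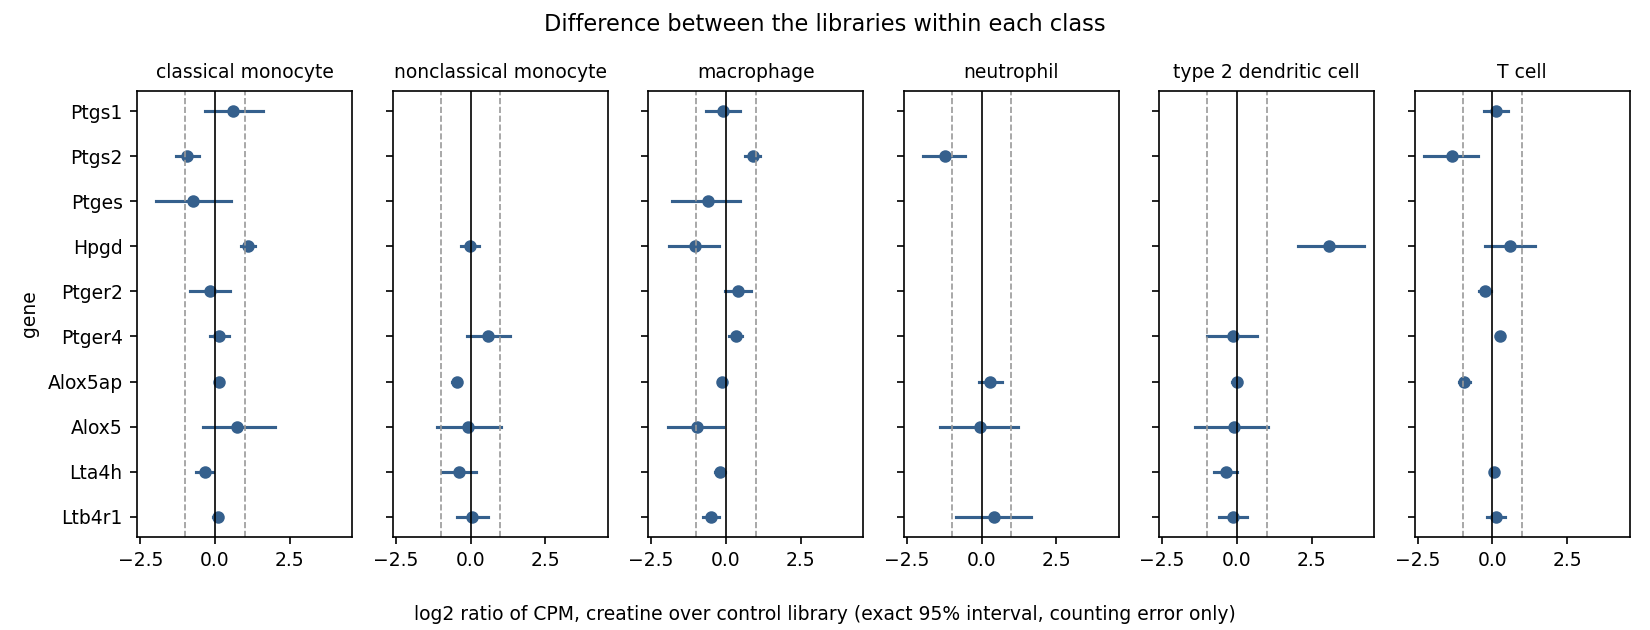
Log2 ratio of CPM, creatine over control library, with exact 95% intervals for counting error, for members with at least 20 UMIs in each of 6 classes; dashed lines mark 2-fold. Only *Hpgd* lies past 2-fold on the higher side (classical monocytes 1.10, cDC2s 3.08), and *Hpgd* in macrophages and *Ptgs2* in neutrophils and T cells lie past it on the lower side.

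Of 32 other genes of the pathways, 16 had enough UMIs in classical monocytes. Of these, 1 was past the fold higher, against 2.81% of all genes with 20 UMIs in that class, and 3 were lower, against 4.29%. *Ptgir*, the prostacyclin receptor, was at 12.4 CPM (9.11 to 16.6) in control and 35.0 CPM (30.6 to 39.8) in creatine cells, and in nonclassical monocytes at 34.7 and 53.6 CPM. The lower ones were *Hpgds*, which makes prostaglandin D2, at 16.0 and 4.05 CPM, *Cysltr1*, a receptor for cysteinyl leukotrienes, at 94.4 and 43.4 CPM, and *Pla2g12a*, a secreted phospholipase, at 12.2 and 5.56 CPM. *Hpgds* was led by macrophages at 204 and 191 CPM and *Cysltr1* was at 73.6 and 47.7 CPM there, and the macrophage markers in the classical monocyte gate were lower in the creatine library as given above. Their part in these values was not tested.

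In nonclassical monocytes 8 of the 32 had enough UMIs, and 2 were past the fold higher against 4.75% of all genes and 1 lower against 2.27%. *Pla2g4a*, the phospholipase that frees arachidonic acid, was at 12.2 and 29.2 CPM, *Ptgr2*, a prostaglandin reductase, at 8.16 and 20.5 CPM and *Ptges2*, a PGE2 synthase, at 22.4 and 9.46 CPM. Each interval of these 3 log2 ratios held 0. In macrophages 20 had enough UMIs, 1 was past the fold higher against 1.22% and 0 were lower against 2.72%. The higher gene was *Mgst2*, which can make leukotriene C4, at 0.83 and 2.36 CPM. In neutrophils 2 and in cDC2s 12 had enough and none was past it, where 5.72% and 3.8% of all genes were higher and 12.9% and 5.65% lower. In T cells 22 had enough, 0 were higher against 1.9% and 4 were lower against 3.03%, each at low levels. These were *Pla2g4a* at 1.07 and 0.53 CPM, *Slco2a1*, a prostaglandin transporter, at 1.19 and 0.43 CPM, *Cyp4f18*, which inactivates leukotriene B4, at 2.05 and 0.91 CPM and *Cysltr1* at 2.39 and 1.06 CPM. Macrophage markers in T cells were lower as well, as given beside *Alox5ap*, and their part was not tested. The counts of these other pathway genes are small, and nothing is read from them beside the shares over all genes.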

How the data were processed

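2 droplet 3′ scRNA-seq libraries of sorted TIIs, 1 labelled PBS (control) and 1 labelled creatine, were analysed. The authors deposited raw UMI counts per gene and cell, made with Cell Ranger 3.0.2 on mm10 per the submitters' processing notes in the labels, as a filtered matrix for each library, and these counts were used as deposited. The annotation and the use of strand in counting are not given in the sources used here.

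Cells with at most 25% mitochondrial UMIs were kept. Each cell was scored on 13 marker lists of 5 or 6 genes. A marker's score was the log of 1 plus its UMIs per 10000, over the 99th percentile among cells with a UMI and capped at 1, and a list's score was the mean over its markers. A cell joined the class of its top list if at least 3 of its markers had a UMI and the score was at least 0.1 above that of the second list. Cells that failed the margin are called between lists. T cells were split in order into *Trdc*+ cells (a *Trdc* UMI with one of *Tcrg-C1* or *Cd163l1*), *Foxp3*+ cells, and cells with *Cd8a* or *Cd8b1* or with *Cd4* UMIs but not both. No doublet caller was run, and an alternative left out cells with at least 3 markers of another lineage.

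UMIs were summed per class and library and given as CPM with exact Poisson intervals. The log2 ratio has a conditional exact binomial interval, and shares have Clopper-Pearson intervals after thinning to 2000 UMIs per cell, with shallower cells left out. With 1 library per group no test was run, and no SE or p-value is given. Genes counted as past the fold had at least 20 UMIs over both libraries and a CPM difference of at least 2-fold. Where a library had 0 UMIs, no fold is given for a named gene. In the counts past the fold, the shares over all genes and the median log2 ratios, a count of 0 was taken as 3 UMIs. For a fixed mix, class CPM values were weighted by the class shares of UMIs in 1 library. Over all kept cells, those between lists and those with too few markers were weighted as further groups.

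Named genes were the 10 members in every class, those of 32 other pathway genes past the fold in a named class, and the 5 genes with the highest Pearson r with *Hpgd* over log2(CPM + 1) profiles. *Ly6c2*, *C1qa* and *Cd163l1*, all of them in marker lists, were singled out after their values were seen, as were the T cells split by *Cd163l1* and by markers of other lineages. The members, lists and gates were chosen with earlier results of these data known. Alternatives covered the scaling (edgeR 4.0.16 TMM factors in R 4.3.3, and CPM with ribosomal protein and mitochondrial genes left out), equal weight per cell, the cell filter, the gate, shared barcodes, the UMI minimum, the fold and the thinning depth. Scripts used scipy 1.17.1 and numpy 2.4.6 for intervals, pandas 2.3.3 for tables and matplotlib 3.10.9 for plots under Python 3.11.15, and were tested on simulated data. Positions are from GENCODE M21 and promoter windows from RefSeq, both on GRCm38. No value column was left unused.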

Additional observations from a re-analysis of the deposited data

Results flagged for a closer look

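*Hpgd* was also higher in the creatine library in the cells that joined no class. Cells between lists held 19.3 CPM (15.5 to 23.8, 89 UMIs) in the control library against 38.6 CPM (32.8 to 45.2, 156 UMIs) in the creatine library, with a log2 ratio of 1.00 (0.61 to 1.39). Cells with too few markers held 2.80 CPM (6 UMIs) against 17.4 CPM (27 UMIs), with a log2 ratio of 2.63 (1.33 to 4.201), and 20 of the 27 UMIs lay in 5 cells. These cells entered no comparison within a class, but they were weighted as further groups in the fixed mix over all kept cells.

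The direction of *Hpgd* in summed UMIs differed between cell types, with a log2 ratio of 1.10 in classical monocytes and of -1.03 in macrophages. The macrophage ratio turned to 0.16 with equal weight for each cell. In each library 5 macrophages held many of the UMIs, 33 of 66 in control and 8 of 17 in creatine cells. The difference between the 2 ratios was not tested, since there was 1 library per group.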

How the results depend on the processing

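Of 60 recomputed log2 ratios of *Hpgd* under the alternatives, over 7 results, 53 stayed within the counting interval of the reported value, and of 351 for the other members, over 39 results, 338 did. Among the 7 results, the fixed mix over gated cells (0.71) has no counting interval. Its alternatives were judged by the distance from the middle to either end of the interval over all kept cells. With equal weight for each cell the *Hpgd* ratio in macrophages turned from -1.03 to 0.16 and that over all cells was 1.35. A gate of 4 markers and a margin of 0.2 gave 4.99 in cDC2s and 1.61 in T cells (and, for *Alox5* in cDC2s, 1.08 in place of -0.10), and assignment by mean profiles gave -0.64 in T cells. Classical monocytes without a nonclassical marker UMI gave 2.04, and without the 5 cells with most *Hpgd* UMIs in each library 1.39, both chosen after seeing the data. The cause of these shifts was not tested. In classical monocytes the *Hpgd* ratio ran from 0.88 to 2.04 over the alternatives and in nonclassical monocytes from -0.16 to 0.10.

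The number of members past the fold over the 6 classes went from 2 higher to 4 with at least 1 UMI in each library, 1 at 50 UMIs and 5 at 1.5-fold, and from 3 lower to 8 at 1.5-fold. For the other pathway genes the higher count went from 4 to 1 at 50 UMIs and 8 at 1.5-fold. The shares over all genes were counted only at 2-fold and 20 UMIs. The counts at other settings thus have no share to be set against, and nothing is read from them. Shares of classical monocytes with an *Hpgd* UMI were 15.4% and 32.6% without thinning and 4.55% and 8.98% at 1000 UMIs. In nonclassical monocytes they were 43.5% and 48.7% without thinning and 19.3% and 18.8% at 1000 UMIs, where the order of the libraries turned. No paired analysis was possible because each group had 1 library, and no library could be left out. Depth limits neutrophils most, where 6 of the 10 members had under 20 UMIs.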
